A study of Homo sapiens with 7 samples.

Results

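The late days of JMJD3c induction, Day 3 and Day 4 after doxycycline (Dox), were compared with the early days, Day 1 and Day 2, in JMJD3c-hESCs. The members are 4 of the 7 RNA-seq libraries of the series, JMJD3c-D1 and JMJD3c-D2 as the early bin and JMJD3c-D3 and JMJD3c-D4 as the late bin, with 1 library per day. All 4 come from the human embryonic stem cell line SEES-3 carrying a piggyBac Tet-On construct for HA-tagged JMJD3c, the C-terminal part of JMJD3 (KDM6B) with its catalytic domain, and all 4 had received Dox at 1 μg/ml. The cells were puromycin-selected stable clones grown in medium that maintains the undifferentiated state. The remaining 3 libraries, Day 0 without Dox and a line with catalytically inactive JMJD3c without Dox and at Day 4 of Dox, entered no bin and are given only as values beside the results. Because both bins are induced cells, the comparison asks which transcripts go on moving once JMJD3c is already present, without reference to an untreated library.

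JMJD3 removes the di- and trimethyl marks from lysine 27 of histone H3, which Polycomb repressive complex 2 places on the promoters of silent developmental genes. In pluripotent cells many of those genes also carry the active mark H3K4me3, a state called bivalent. When such cells enter the primitive streak, the transient population that gives rise to mesoderm and endoderm, NODAL and Wnt signaling act upstream of the T-box genes T and EOMES, which precede the endoderm regulators SOX17, FOXA2 and GATA6.

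Expression was measured as FPKM, a read density scaled by exon length and by the mapped reads of the library, for 22670 entries per library. A gene was tested if its mean over the 4 libraries was at least 1 FPKM, which left 12464 genes. A tested gene was counted as moved when both late values lay on the same side of both early values, and as called when, in addition, the ratio of the bin means was above 2 or below 0.5 and the higher bin mean was above 4 FPKM. FPKM files hold no counts, so absolute depth is unknown. From the commonest ratio between low values, the depth of Day 2, Day 3 and Day 4 was 1.21, 1.29 and 0.914 times that of Day 1. The Pearson correlation of log2(FPKM + 1) between pairs of the 4 libraries, across genes, ranged from 0.942 for Day 1 and Day 4 to 0.974 for Day 2 and Day 3. In bulk RNA, a change in the number of cells of one kind and a change in RNA per cell cannot be told apart.

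Of the tested genes, 2754 were moved up (22.1%) and 2444 were moved down (19.6%). The called genes numbered 148 up (1.19%) and 147 down (1.18%), together 295. With 1 library per day no error rate can be attached to these counts. Being moved depends only on the order of the 4 values, which random variation alone also separates in many genes. A moved gene therefore need not have responded. Cufflinks, which made the FPKM values, also gives each value a 95% interval that covers the uncertainty of one library. All 4 intervals were apart in the direction of the move for 86 genes up (0.69%) and 32 genes down (0.257%), and these included 38 of the genes called up and 10 of those called down. Just inside the ratio limits the called genes reached 2.01 and 0.498, and the nearest genes outside them had 1.99 and 0.5002.

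**Figure D1:**
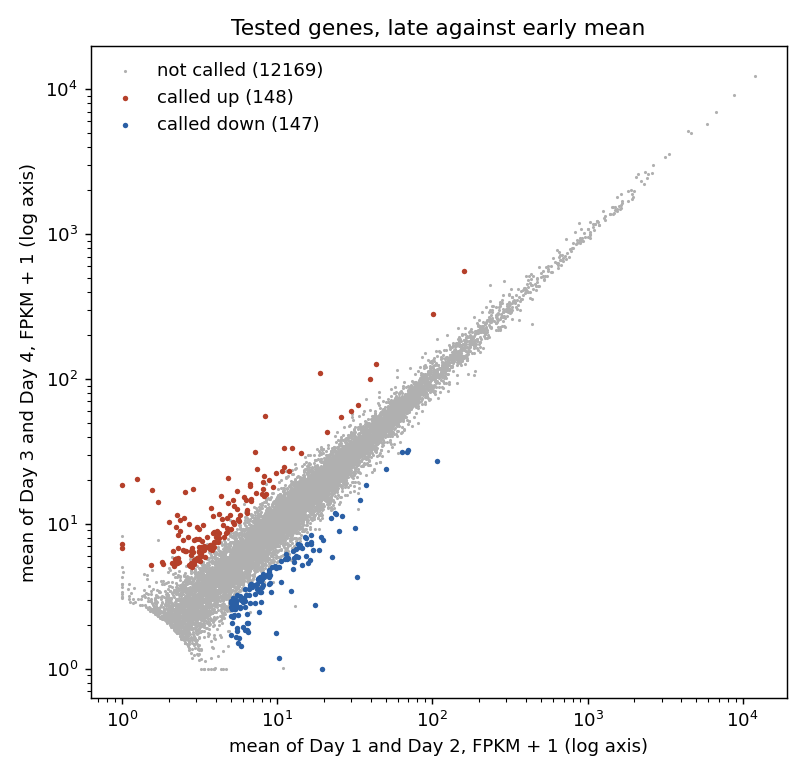
Mean FPKM + 1 of Day 3 and Day 4 plotted against that of Day 1 and Day 2 on log axes, 1 point per tested gene. The 148 genes called up lie above the diagonal and the 147 called down below it. Some uncalled genes also lie off the diagonal, such as DDIT4, with 52.7, 11.6, 11.3 and 11.9 FPKM on Days 1 to 4, whose bins overlapped.

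In limma on log2(FPKM + 1), with the 2 libraries of each bin in place of replicates, no gene passed an adjusted p of 0.05. The lowest adjusted p was 0.053, for TXNRD2, and 1147 genes (9.20% of those tested) had an unadjusted p under 0.05, of which 644 were higher and 503 lower in the late bin. The error in this fit is the difference between consecutive days, which are time points and not replicates of one another. A gene that climbs every day therefore has a large error by construction. The labels do not say whether the days come from 1 culture series. When days were instead entered as a number, a straight line over Days 1 to 4 in limma gave 30 genes at an adjusted p under 0.05, 21 rising (0.168%) and 9 falling (0.0722%), with 1975 at an unadjusted p under 0.05. All 30 were moved and 24 were called, where 41.7% of all tested genes were moved and 2.37% called. The line and the rule use the same 4 values, so this overlap is no independent support. Leaving out Day 2 gave 2 genes in the late against early fit, CER1 and CST1, and the other 7 alternatives to that fit gave 0.

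Of the 4 marker genes, 3 of endoderm were higher and 1 of pluripotency was lower on both late days than on both early days, and none passed the late against early test. CER1, a secreted antagonist of NODAL, BMP and Wnt made by anterior endoderm, had 1.85, 34.0, 84.1 and 134 FPKM on Days 1 to 4. Its late mean was 6.07 times its early mean, and the log2 difference was 3.42 with an SE of 1.01 (limma adjusted p = 0.454). It was 1.61 without Day 1 and 5.23 without Day 2. On the log2(FPKM + 1) scale, Day 1 stood apart from Day 2 in this gene more than Day 3 from Day 4. No interval of the early bin reached one of the late bin. The files place the CER1 gene at chr9:14719722-14722715 on hg19. SOX17, the transcription factor that defines definitive endoderm, was listed at 0 at Day 1 and had 3.05, 10.9 and 20.3 FPKM on the following days, and its intervals were apart. FOXA2, a forkhead pioneer factor of endoderm and axial mesoderm, had 5.12, 14.8, 20.4 and 27.2 FPKM, and the intervals of Day 2 and Day 3 overlapped.

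SOX2, a core pluripotency and neural factor, went the other way without meeting the call. Its level was 107 FPKM at both early days, 80.9 at Day 3 and 65.9 at Day 4, with the intervals of the bins apart. The ratio of bin means was 0.686, short of 0.5, and the log2 difference of -0.54 had an SE of 0.13 (limma adjusted p = 0.44). In the inactive line SOX2 was also lower with Dox, at 74.6 against 99.6 FPKM, a level within the late bin, whereas CER1 had 0.924 against 1.62 FPKM, FOXA2 2.27 against 1.86 FPKM, and SOX17 was listed at 0 in both. By the rule, the 3 endoderm markers were called up and SOX2 was moved down but not called.

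**Figure D2:**
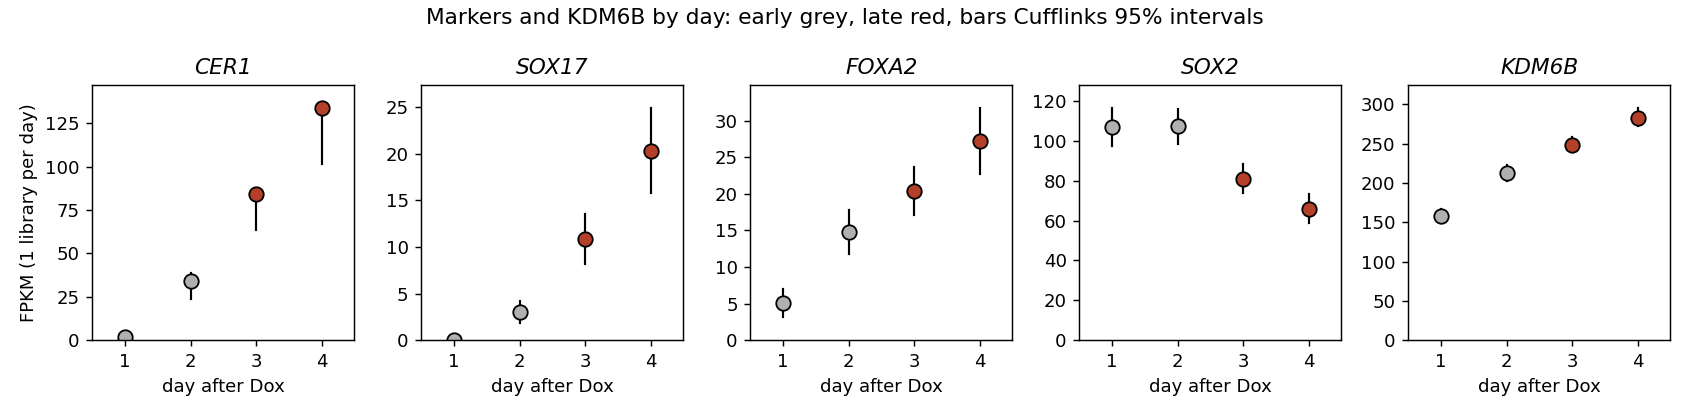
FPKM of CER1, SOX17, FOXA2, SOX2 and KDM6B by day after Dox, 1 library per day, with early days in grey, late days in red and the Cufflinks 95% interval as a bar. CER1, SOX17 and FOXA2 are higher at both late days, SOX2 is lower, and KDM6B goes from 158 to 282 FPKM. The FPKM that Cufflinks gave for CER1 at Day 4 lies above its own interval.

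KDM6B, the gene whose C-terminal part the construct carries, had 158, 212, 248 and 282 FPKM on Days 1 to 4. It was moved up but not called, with a ratio of bin means of 1.43. At Day 0 it had 3.45 FPKM and in the induced inactive line 454 FPKM, so most of this signal came with induction, and reads from the construct and from the endogenous gene cannot be told apart. The level of the induced transcript thus differed between the bins, and its part in the other differences was not tested.

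Gene lists were described by their counts, beside a median log2 difference of -0.0037 over all tested genes. The counts of every list are to be read against 22.1% moved up and 19.6% moved down among all tested genes. The shares called up and called down were 1.19% and 1.18%. Several members of the endoderm, streak and pluripotency lists were named by the study from these samples, so their direction is not independent evidence, and lists share genes. Of 15 tested members of the definitive endoderm list, 11 were moved up, none down, and 8 were called up (SOX17, FOXA2, GATA4, GATA6, CER1, CXCR4, LHX1 and GSC), with a median log2 difference of 1.21. GATA6, a zinc-finger regulator of endoderm, was listed at 0 at Day 1 and had 2.52, 6.11 and 14.8 FPKM afterwards. GATA4, its relative, had 0.893, 3.16, 6.11 and 10.97 FPKM. CXCR4, the chemokine receptor used to sort definitive endoderm, had 1.27 and 1.47 FPKM on the early days and 5.11 and 14.1 FPKM on the late days. Its values at Day 1 and Day 2 lay close together. OTX2, a head organizer factor, FOXA3, KIT and FRZB overlapped between the bins, and HHEX, PRDM1 and EPHA4 were moved up without meeting the call.

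Primitive streak genes gave a similar count, with 11 of 14 tested members moved up, 1 moved down and 8 called up, and a median of 1.29. EOMES, the T-box factor that opens the endoderm program, had 1.39, 10.9, 21.96 and 38.2 FPKM. T (brachyury), the T-box factor of the streak, had 2.68, 10.2, 22.4 and 23.6 FPKM. T therefore differed little between Day 3 and Day 4, where EOMES went further up. MIXL1, a homeobox gene of the streak, had 4.79, 15.2, 23.5 and 41.0 FPKM, and SP5, a zinc-finger Wnt target, 0.819, 6.78, 11.4 and 28.2 FPKM. GSC (the organizer homeobox gene), LHX1, FGF17 and APLNR (the apelin receptor) were the other genes called up. FGF8, a growth factor of the streak, overlapped between the bins, with 8.45, 4.99, 3.55 and 5.84 FPKM.

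**Figure D3:**
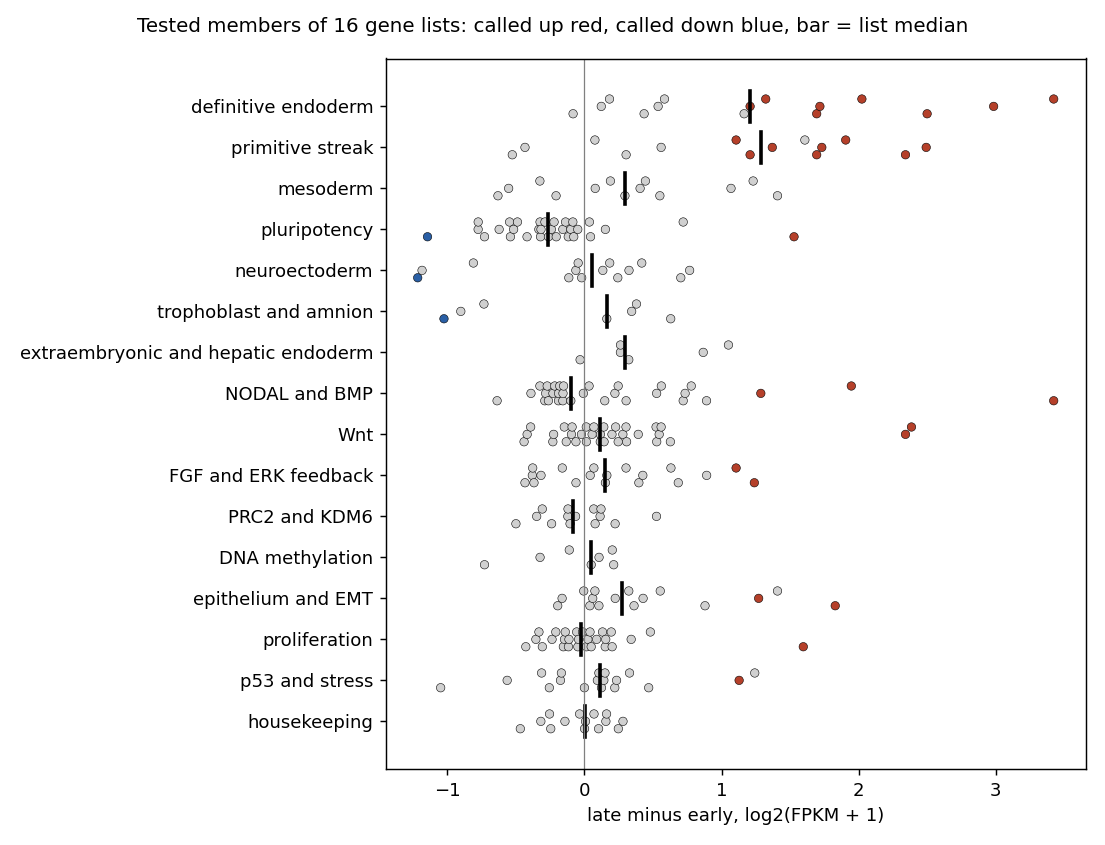
Late minus early difference on the log2(FPKM + 1) scale for every tested member of 16 gene lists, with genes called up in red, genes called down in blue, other genes in grey and the list median as a bar. The medians of the definitive endoderm and primitive streak lists, 1.21 and 1.29, are the furthest from 0 among the 16 lists.

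Of 13 tested mesoderm genes, 5 were moved up and 2 down, with a median of 0.30, and none was called, where 2.37% of all tested genes were called in either direction. TWIST1, a bHLH factor of mesenchyme, had 0.256, 0.636, 1.19 and 5.61 FPKM, and MSX1, a homeobox gene downstream of BMP, 0.216, 0, 0.335 and 4.02 FPKM. In both genes Day 4 stood well above the other 3 days. KDR, a receptor of vascular progenitors, and BMP4 were moved down. BMP4 had 10.2, 7.43, 6.76 and 6.75 FPKM on Days 1 to 4, all above its 5.48 FPKM at Day 0. For KDR the value at Day 0, 13.1 FPKM, lay above all 4 induced days.

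Pluripotency genes leaned down by small amounts. Of 31 tested, 15 were moved down and 3 up, with a median of -0.26, and 1 member was called in each direction. UTF1, a chromatin factor of undifferentiated cells, had 83.7, 50.7, 39.0 and 21.5 FPKM and was called down. GAL, which encodes the neuropeptide galanin and is abundant in hESCs, had 68.9, 132, 236 and 325 FPKM and was called up, against the direction of its list. TET1, the 5-methylcytosine dioxygenase, had 13.7, 10.7, 8.19 and 5.83 FPKM, and TERF1, a telomere-binding protein, 156, 129, 100.9 and 83.5 FPKM, both with intervals apart but neither called. The core factors POU5F1, with 765, 684, 720 and 619 FPKM, and NANOG, with 99.7, 84.3, 95.3 and 92.9 FPKM, overlapped between the bins. In the inactive line, all tested members but GAL, at 32.4 FPKM in both libraries, were also lower with Dox. UTF1 had 55.2 against 72.9 FPKM there, TET1 14.3 against 16.5, TERF1 165 against 222 and POU5F1 629 against 716. The part of Dox in the lean of this list was not tested.

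In the NODAL and BMP list, 10 of 31 tested members were moved up and 9 down, with a median of -0.10, and the 3 called up were the ligand BMP2 and the secreted antagonists CER1 and CHRD. CHRD (chordin), which binds BMP ligands, had 1.65, 4.98, 11.9 and 17.3 FPKM, and BMP2 had 1.103, 1.46, 3.16 and 6.40 FPKM. NODAL, the ligand itself, was moved up from 56.6 and 45.0 to 60.0 and 65.3 FPKM, and its feedback inhibitors LEFTY1 and LEFTY2 were also moved up, none of them called. The transducers SMAD1, SMAD2, SMAD4 and SMAD5 were moved down, with log2 differences between -0.19 and -0.64.

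In the Wnt list, 13 of 33 were moved up and 3 down, with a median of 0.12, and 2 were called up. These were SP5 and DKK4, a secreted Wnt inhibitor that was listed at 0 at Day 1 and had 8.98, 13.03 and 18.4 FPKM on Days 2 to 4. AXIN2, another feedback gene of the same pathway, overlapped between the bins with 15.3, 13.2, 9.97 and 14.4 FPKM. In the FGF and ERK feedback list, 9 of 19 were moved up and 4 down, with a median of 0.15, and FGF17 and the phosphatase DUSP4 were called up. DUSP4 had 1.69, 2.85, 5.77 and 7.52 FPKM.

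Among epithelium and EMT genes, 10 of 16 were moved up and 1 down, with a median of 0.27, and VIM and FN1 were called up. VIM (vimentin), the mesenchymal intermediate filament, had 108, 211, 413 and 704 FPKM. FN1 (fibronectin), a matrix protein, had 36.2, 40.5, 67.9 and 130 FPKM. CDH2 (N-cadherin) was moved up from 16.5 and 30.0 to 36.0 and 48.6 FPKM, while CDH1 (E-cadherin) and SNAI1 overlapped between the bins. In the inactive line VIM was also higher with Dox, at 138 against 44.1 FPKM, a ratio that would meet the same cutoffs.

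Lists for other tissues and for general functions can be read against the 2.37% of tested genes called in either direction. In the neuroectoderm list 3 of 14 tested were moved up and 3 down (median 0.06), and SOX21, a partner and antagonist of SOX2, was called down with 12.5, 12.5, 5.68 and 4.10 FPKM. Its level was 5.86 FPKM at Day 0, below both early days, and 8.17 and 5.01 FPKM in the inactive line without and with Dox. In the trophoblast and amnion list 1 of 7 was moved up and 3 down (median 0.16), and the keratin KRT7 was called down with 4.83, 4.00, 2.43 and 1.06 FPKM. The extraembryonic and hepatic endoderm list had 3 of 6 moved up, none down and none called (median 0.29). The PRC2 and KDM6 list had 1 of 14 moved up, 2 down and none called (median -0.08), and the DNA methylation list 1 of 7 up, 3 down and none called (median 0.05). The PRC2 and KDM6 member moved up was KDM6B itself, whose reads include those of the induced construct. EZH2, the methyltransferase of PRC2, had 31.8, 29.2, 30.8 and 41.5 FPKM, so its bins overlapped.

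In the proliferation list 7 of 28 were moved up and 8 down (median -0.03), with only CDKN2A, the cell cycle inhibitor locus that PRC2 is known to silence, called up at 1.38, 0.905, 4.42 and 6.63 FPKM. The p53 and stress list had 4 of 18 moved up and 3 down (median 0.12), with only the pseudokinase TRIB3 called up. Of 14 housekeeping genes 5 were moved up and 2 down, none was called, and the median was 0.01. Their counts of moved genes can be read against the 22.1% and 19.6% of all tested genes.

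Genes outside the lists led the ranking by gap, the log2(FPKM + 1) distance between the nearest late and early libraries. DIO3, the deiodinase that inactivates thyroid hormone, had 0, 0.491, 14.3 and 24.5 FPKM, with a gap of 3.36 and a log2 difference of 4.02 (SE 0.35, limma adjusted p = 0.0774). ANKRD1, a nuclear ankyrin protein of stretched muscle and a known target of YAP and TEAD, was listed at 0 on both early days and had 7.69 and 27.5 FPKM on the late days. NPPB, which encodes the natriuretic peptide BNP, had 0.764, 0.631, 7.69 and 18.4 FPKM. MYL7, the atrial myosin light chain, was listed at 0 on both early days and had 3.55 and 8.01 FPKM on the late days. Each of these 4 genes was near 0 on both early days and present on both late days. The Cufflinks intervals of the bins were apart for ANKRD1 and NPPB but not for DIO3 and MYL7. At Day 0 MYL7 had 1.80 FPKM, above its early values. On hg19 the files place the DIO3 gene at chr14:102027688-102029789, ANKRD1 at chr10:92671853-92681033, NPPB at chr1:11917521-11918988 and MYL7 at chr7:44178463-44180931, so the 4 genes lie on different chromosomes.

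The other genes with the largest gaps up included CST1, IGFBP6 and TNC. CST1, a secreted cysteine protease inhibitor, had 1.35, 13.4, 45.6 and 62.5 FPKM. TNC (tenascin C), a matrix glycoprotein, had 0.873, 2.87, 8.43 and 24.6 FPKM, and COLEC12, a scavenger receptor, 0.385, 1.60, 5.67 and 12.9 FPKM. IGFBP6, a binding protein of insulin-like growth factors, had 1.16, 1.28, 7.52 and 9.34 FPKM. TFF3 (a trefoil peptide), SOX14, MVK (mevalonate kinase), RP11-762I7.5, SOX17 and CXCR4 completed the 15. In RP11-762I7.5 the 2 libraries of the inactive line, with 10.5 and 9.58 FPKM, were at the level of the late bin.

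TXNRD2 and SELM, which have large gaps up and down, had wide Cufflinks intervals and uneven values in the libraries outside the bins. TXNRD2, the mitochondrial thioredoxin reductase, had 0.718, 0.398, 17.4 and 15.1 FPKM on Days 1 to 4, but 6.78 FPKM at Day 0 and 3.13 and 18.3 FPKM in the inactive line without and with Dox. Its value at Day 1 lay outside its own Cufflinks interval, which ran from 6.40 to 1616 FPKM. SELM, a selenoprotein of the endoplasmic reticulum, was called down with 39.2, 23.8, 3.85 and 2.73 FPKM, had 7.51 FPKM at Day 0 and 11.03 and 20.6 FPKM in the inactive line, between the bins, and its interval at Day 1 ran from 1.89 to 1209 FPKM. For both genes the intervals leave the difference between the bins uncertain.

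**Figure D4:**
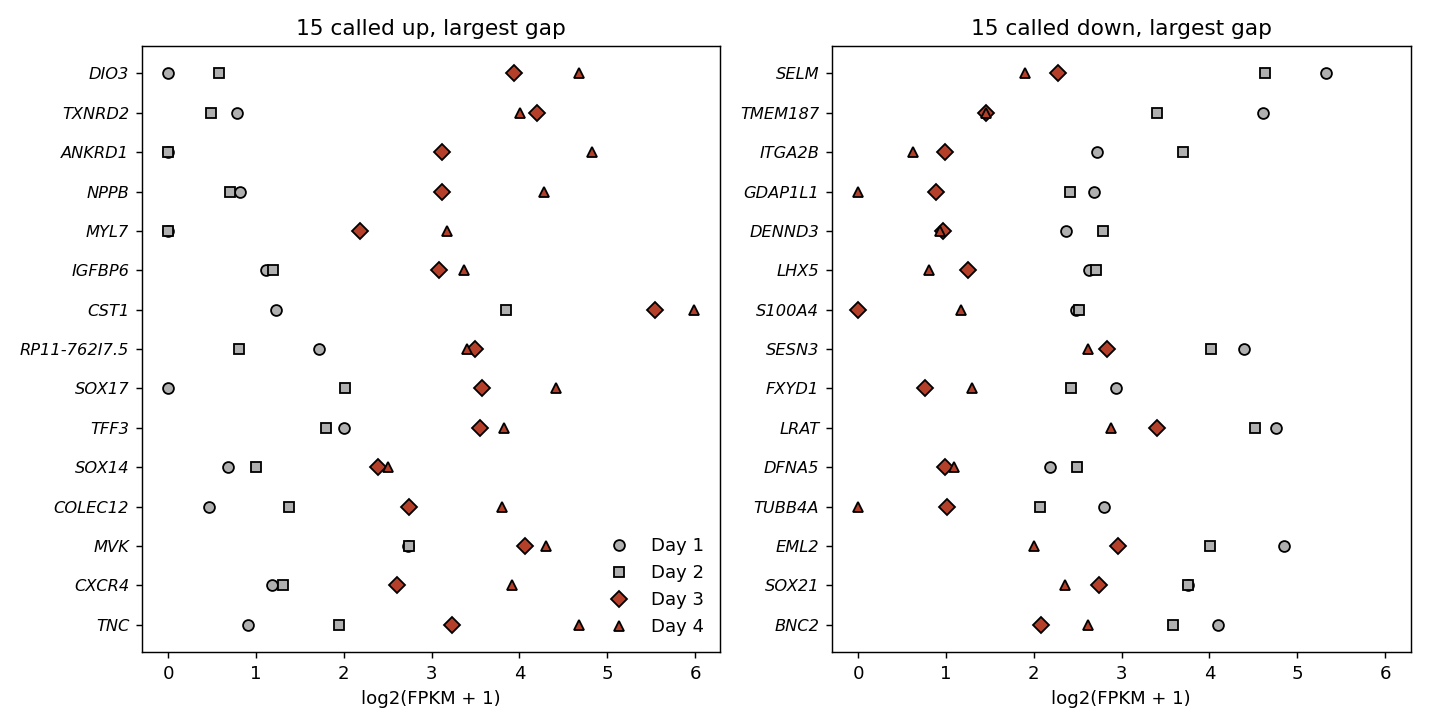
log2(FPKM + 1) on Days 1 to 4 for the 15 genes called up and the 15 called down with the largest gap between the nearest late and early libraries, early days in grey and late days in red. The bins are separated in every gene by the rule, from a gap of 3.36 in DIO3 downward, and ANKRD1 and MYL7 are listed at 0 on both early days.

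The 15 genes called down with the largest gaps were lower on both late days, with SELM first. LHX5, a forebrain homeobox gene, had 5.21, 5.56, 1.38 and 0.7496 FPKM. LRAT, which esterifies retinol, had 26.05, 22.003, 9.60 and 6.37 FPKM. SESN3, a stress-inducible sestrin, had 19.9, 15.2, 6.14 and 5.11 FPKM. In LHX5 and LRAT the days within each bin lay close together compared with the step between bins. ITGA2B, the platelet integrin subunit, had 5.59, 12.03, 0.981 and 0.542 FPKM, and EML2, a microtubule-associated protein, 27.7, 15.1, 6.75 and 3.00 FPKM. TMEM187, GDAP1L1, DENND3, S100A4, FXYD1, DFNA5, TUBB4A, SOX21 and BNC2 were the remaining genes, and GDAP1L1 and TUBB4A were listed at 0 at Day 4.

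The order of the days was examined among the called genes. Of the 148 called up, 92 (62.2%) went up at every step from Day 1 to Day 4, and of the 147 called down, 79 (53.7%) went down at every step, against 36.8% of all genes moved up and 41.9% of all genes moved down. The rule requires Day 2 and Day 3 to be separated, so the step between them carries no information here. The called genes were also chosen for large differences in these same 4 values. Their higher shares are therefore no independent sign of steady movement. The step from Day 1 to Day 2 ran against the direction in 38 of the genes called up and 44 of those called down, and the step from Day 3 to Day 4 in 29 and 35. In the line over days, VIM rose by 0.90 log2 units per day (SE 0.04, limma adjusted p = 0.00156) and SERPINE2, a secreted serine protease inhibitor, by 0.79 (SE 0.05, limma adjusted p = 0.00656). SOX17, GATA6, GATA4, EOMES, MIXL1, SP5 and CHRD were among the 21 that rose. MT1G, a metallothionein, fell from 153 to 58.7, 33.0 and 19.5 FPKM, and UTF1, EML2, INA (a neuronal intermediate filament) and MT1F were also among the 9 that fell.

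The 3 libraries outside the bins were set beside the called genes. Day 0 lay on the early side of both late libraries in 131 of the 148 genes called up (88.5%) and 121 of the 147 called down (82.3%), against 68.0% of all genes moved up and 69.8% of those moved down. These genes were chosen for their late values. Relative to the early bin alone, Day 0 was below both early libraries in 71 and above both in 45 of the genes called up, and above both in 39 and below both in 64 of those called down. In the inactive line, the genes called up were higher with Dox in 63, lower in 77 and equal in 8, with a median log2 difference of -0.04. The genes called down were higher in 51, lower in 93 and equal in 3, with a median of -0.15, while all tested genes were higher in 6240 and lower in 6171. The same cutoffs were met in the same direction in the inactive line by 8 genes called up, among them VIM, TXNRD2, FOSL1 and PLAT, and by 9 called down. They were met in the other direction by 4 genes called up and 8 called down. Over all tested genes, 119 (0.955%) met them upward and 146 (1.17%) downward in that line.

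Those 9 included BNIP3, a mitophagy receptor, and STC1, a secreted glycoprotein. BNIP3 had 93.1, 43.5, 35.2 and 27.6 FPKM on Days 1 to 4, and 68.5 against 23.4 FPKM in the inactive line without and with Dox. STC1 had 17.2, 5.99, 4.26 and 3.46 FPKM, and 11.03 against 4.58 FPKM. These genes were chosen after their values were seen. Both were lower with Dox in the line whose JMJD3c has no catalytic activity, and the part of Dox in their difference between the bins was not tested.

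Promoter sequences are shown for 6 genes of the comparison, so that the letters around the start sites of genes that moved with and against each other can be seen side by side. Each is the 250 bases before the start site, 5′ to 3′ on the strand of the gene, from RefSeq on GRCh38.p14, a later build than the hg19 of the expression files. The windows are chr9:14722734-14722983 for CER1, chr3:27722324-27722573 for EOMES and chr10:90921088-90921337 for ANKRD1 on the minus strand, and chr14:101561245-101561494 for DIO3, chr3:181711675-181711924 for SOX2 and chr10:133229967-133230216 for UTF1 on the plus strand. Capitals mark matches, on either strand, to any of 8 motifs. The TATA box was searched as TATAAA, and the motif bound by TEAD factors, the partners of YAP, was searched as GGAATG. For GATA factors the letters were AGATAA, and those for T-box factors such as EOMES were AGGTGT. Forkhead factors such as FOXA2 were searched with the letters TGTTTAC, and SOX factors with the letters ACAATG. The motif of TCF and LEF, the nuclear partners of Wnt signaling, was CTTTGA, and that of FOXH1, the partner of SMAD proteins under NODAL, was AATCCACA.
CER1: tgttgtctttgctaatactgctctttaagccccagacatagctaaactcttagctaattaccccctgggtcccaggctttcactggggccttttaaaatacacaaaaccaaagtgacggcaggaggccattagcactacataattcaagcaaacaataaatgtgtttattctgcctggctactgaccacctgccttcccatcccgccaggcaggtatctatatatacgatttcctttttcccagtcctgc
EOMES: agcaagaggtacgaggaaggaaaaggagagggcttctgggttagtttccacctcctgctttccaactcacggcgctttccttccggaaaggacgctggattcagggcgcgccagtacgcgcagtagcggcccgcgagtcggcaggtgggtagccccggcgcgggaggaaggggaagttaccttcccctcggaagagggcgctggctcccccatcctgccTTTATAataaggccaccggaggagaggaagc
DIO3: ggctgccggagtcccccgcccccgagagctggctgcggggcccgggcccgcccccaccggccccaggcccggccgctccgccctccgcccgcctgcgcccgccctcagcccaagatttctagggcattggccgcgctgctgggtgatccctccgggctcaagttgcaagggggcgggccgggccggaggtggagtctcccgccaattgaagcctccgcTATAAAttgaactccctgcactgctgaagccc
ANKRD1: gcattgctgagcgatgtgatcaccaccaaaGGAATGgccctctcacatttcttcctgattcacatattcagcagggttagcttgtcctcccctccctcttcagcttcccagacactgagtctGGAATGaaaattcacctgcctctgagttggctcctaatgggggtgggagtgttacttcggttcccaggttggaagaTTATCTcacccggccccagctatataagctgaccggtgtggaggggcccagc
SOX2: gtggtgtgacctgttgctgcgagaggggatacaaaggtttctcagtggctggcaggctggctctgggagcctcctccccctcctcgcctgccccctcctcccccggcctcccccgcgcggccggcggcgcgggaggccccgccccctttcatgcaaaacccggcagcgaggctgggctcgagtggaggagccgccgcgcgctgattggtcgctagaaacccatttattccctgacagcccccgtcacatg
UTF1: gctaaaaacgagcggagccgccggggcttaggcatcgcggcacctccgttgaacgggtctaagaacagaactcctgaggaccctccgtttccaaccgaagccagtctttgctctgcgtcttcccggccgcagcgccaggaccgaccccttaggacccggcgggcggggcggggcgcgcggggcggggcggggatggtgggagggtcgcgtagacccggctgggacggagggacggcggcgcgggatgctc

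DIO3 and EOMES held TATAAA or its reverse complement, which 11.1% of all 27305 promoters held, and ANKRD1 held GGAATG at 2 places, which 11.9% of all promoters held at least once, and the reverse complement of AGATAA. CER1, SOX2 and UTF1 held none of the 8 in this window. GC content was 45.2% for CER1 and 53.2% for ANKRD1, against 62.0% for EOMES, 68.8% for SOX2, 70.8% for UTF1 and 73.2% for DIO3. A promoter was matched for 94 of the genes called up and 100 of those called down, whose median GC contents, 65.6% and 65.2%, were close to the 65.2% of all 9432 tested genes with one. TATAAA was in 11.7% of the promoters called up and 10% of those called down, against 4.76% of those tested, and GGAATG in 12.8% and 10% against 9.25%. Of the other motifs, AATCCACA was in 2.13% of the promoters called up and 0% of those called down, against 0.297% of those tested. These are only 2 of 94 promoters called up and 28 of 9432 tested. AGGTGT was in 8.51% and 4% against 7.35%, and the SOX letters were in 5.32% and 5% against 4.79%. The shares in genes called up were below those tested for the TCF and LEF letters, 4.26% and 7% down against 7.34%, the GATA letters, 3.19% and 7% down against 4.28%, and the forkhead letters, 1.06% and 1% down against 1.8%. The forkhead shares rest on 1 promoter in each direction. All the shares are descriptions of the letters in the window, with no test.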

How the data were processed

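RNA-seq libraries of JMJD3c-hESCs were analysed at Days 1 to 4 of Dox, 1 per day. The authors mapped single-end MiSeq reads of poly(A) RNA to hg19 with TopHat 2.0.13 and deposited FPKM values per gene from Cufflinks 2.1.1, with 95% bounds in FPKM. No counts are given, so depth is relative only. Entries were joined by identifier and locus, and the entry with the highest mean was used where a name is shared.

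The rule, the filter at a mean of 1 FPKM and the cutoffs are those stated with the results. limma 3.58.1 was fitted on log2(FPKM + 1) with a mean-variance trend and Benjamini-Hochberg adjustment over all 12464 tested genes. In all 10 limma fits were run, the late against early fit and 9 alternatives. The scripts were tested on simulated data for 12464 genes, 200 of them changed 4-fold, with noise set to the spread between the days of a bin. The rule called 100% of the changed genes, and it also called 118 unchanged genes. That noise is a spread between time points, so the 118 are not an error rate for the real counts.

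The genes and lists were chosen with earlier results of these data known. Named genes are the 4 markers, KDM6B, the 15 called genes with the largest gap each way (without small RNAs, loci under 300 bases and joined names) and called list members. Besides the 16 lists reported, 13 lists were drawn up after the called genes had been seen. They served only to look up single genes, and no count is given for them, because they were built around called genes. SERPINE2, MT1G, INA, MT1F, FOSL1, PLAT and uncalled list members were named after their values were seen. UHRF1 was not found under that name. The values of 1 list member are not reported here. Python 3.11.15 with pandas 2.3.3 and numpy 2.4.6 was used.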

Additional observations from a re-analysis of the deposited data

How the results depend on the processing

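No paired analysis was possible because each day has 1 library and the labels give no replicate numbers shared between the bins. Of 602 values recomputed for 86 named genes, all 602 kept their direction. Leaving out a library or changing the pseudocount could not reverse a gene whose late values both lay on one side of both early values. The size factors of the median-ratio scaling ran only from 0.981 to 1.03. The kept direction thus follows largely from how the genes were chosen and is no separate support. Without Day 2 the log2 difference was 5.23 for CER1 and 4.54 for CST1. Of 112 recomputed medians of the 16 lists, 100 stayed within the spread between single days, 12 moved by more and none of the medians beyond that spread changed sign.

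Genes called up and down numbered 274 and 309 at a cutoff of 1 FPKM and 56 and 49 at 10 FPKM. They numbered 51 and 32 when the ratio was taken between the nearest libraries, and 38 and 10 when the Cufflinks intervals had to be apart, which also lowers the moved genes to 86 and 32. A mean of at least 4 FPKM left 96 called down. Leaving out 1 library at a time, which loosens the rule by construction, gave 169 to 312 called up and 131 to 387 called down, 4363 to 4720 moved up and 3647 to 5059 moved down, and 116 to 276 and 48 to 234 with intervals apart. The highest counts of called genes, 312 and 387, came without Day 3. Of the 148 and 147 called genes, 104 and 81 remained called without Day 1, 136 and 123 without Day 2, 135 and 131 without Day 3, and 84 and 83 without Day 4. The differences of 34 of the 86 named genes moved by over 1.5 times without 1 library, 20 of them without Day 1 and 15 without Day 4. Median-ratio scaling kept 292 of the 295 called genes. The late against early limma fit gave 0 genes, or 0 to 2 without 1 library, and the line over days 30. Absolute depth is unknown.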
